A study of Homo sapiens with 60 samples.

Results

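The libraries examined are the 6 made from SW1783 cells that had received a water extract of Aucklandiae Radix for 24 h, 3 at the high dose of 500 µg/mL and 3 at the low dose of 20 µg/mL, of 60 libraries in all. They were chosen by their treatment labels, and all genes were compared. SW1783 is a human astrocytoma line grown in L-15 medium with serum, so every value comes from a single line. The same herb was given at 100 µg/mL (medium dose), and Polygalae Radix at 250, 50 and 10 µg/mL and Schisandrae Fructus at 500, 100 and 20 µg/mL serve for comparison, each with 3 libraries a dose. The 3 vehicle libraries of this line are labelled 0.1% DMSO, while the series description gives 2%, and no label gives a DMSO content for the extracts. The low dose is the baseline here because, by library name, both doses belong to set 4, as Polygalae does, whereas the vehicle libraries bear the name A1 and Schisandrae belongs to set 2. The labels do not tell whether the 3 libraries of a dose are separate cultures, and p-values therefore refer to the spread among the libraries alone. The contrast asks which transcripts depend on the dose of the extract.

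Aucklandiae Radix is a dried root used in East Asian medicine, and costunolide and dehydrocostus lactone are its best known sesquiterpene lactones. Such electrophiles can react with cysteines of KEAP1, which otherwise leads the transcription factor NRF2 to the proteasome. NRF2 then drives genes for glutathione synthesis, quinone reduction and iron storage. Growth factor signalling through ERK works by a different logic, since it induces its own brakes, among them dual specificity phosphatases and Sprouty proteins. The content of the extract was not measured in these data.

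The 3 high libraries held 26.48, 27.87 and 28.53 M counts (M, mega), and the 3 low libraries 29.47, 18.64 and 18.94 M. Mitochondrially encoded genes took 8.94%, 8.98% and 8.77% of the counts in the high libraries, against 8.26%, 9.34% and 9.87% in the low libraries, so the groups overlapped. Of 16 astrocyte and glioma markers, 7 (GFAP, S100B, AQP4, SLC1A2, ALDH1L1, FABP7 and SPARCL1) stayed under 1 CPM in all 12 Aucklandiae and vehicle libraries. VIM, CD44 and GJA1 were detected, so the line carries only part of an astrocyte profile. CPM are counts scaled to a common library total after normalisation. They can be compared between libraries for 1 gene but not between genes, because they are not divided by gene length.

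A large part of the transcriptome depended on the dose, in modest steps. Of 17076 genes tested, 2951 (17.3%) were called in edgeR's quasi-likelihood test (Benjamini-Hochberg adjusted p under 0.05), 1562 higher (9.15%) and 1389 lower (8.13%) at the high dose. The median called rise was 0.28 and the median called fall −0.34 on the log2 scale, and the median of all genes was 0.00. At least a 1.5-fold change was estimated for 567 of the called genes, 232 higher and 335 lower. At least a 2-fold change was estimated for 191, of which 67 were higher and 124 lower. All 3 high libraries lay above all 3 low libraries for 1531 called rises (8.97% of genes tested), and below them for 1342 called falls (7.86%). Without regard to p, 17.2% of all genes had the 3 high libraries above the 3 low ones and 15.8% had them below. In bulk RNA, fewer cells that make a transcript and less of it per cell cannot be told apart. Protein-coding genes made up 92.8% of called genes and 79.5% of genes tested.

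**Figure D1:**
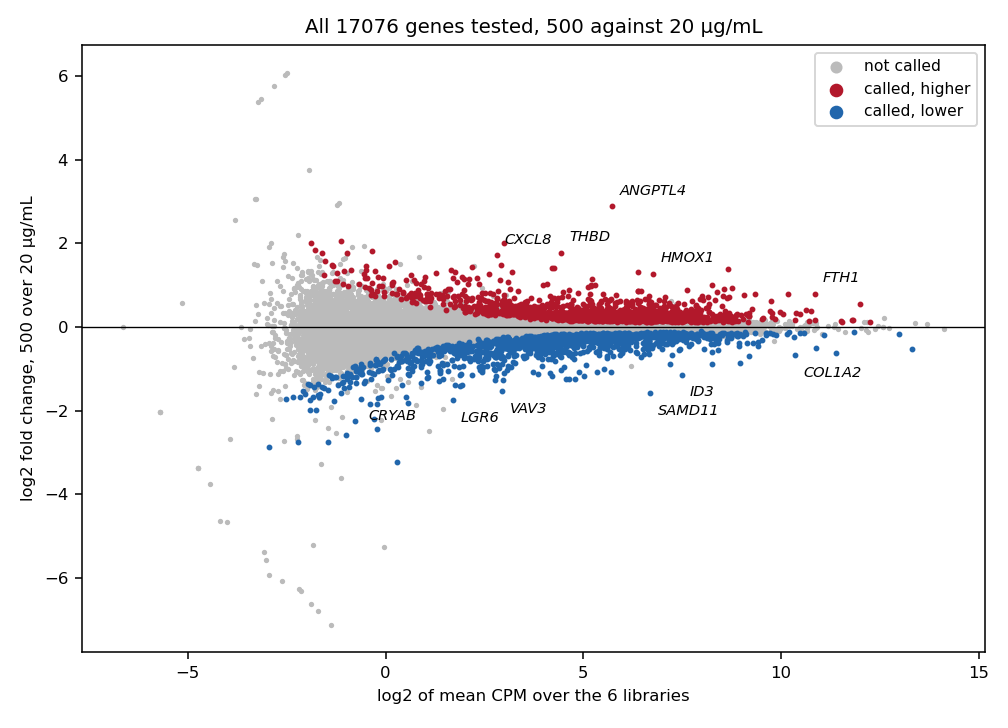
Each point is 1 of the 17076 genes tested, with the log2 of its mean CPM over the 3 high and 3 low libraries on the x axis and the log2 fold change of 500 over 20 µg/mL on the y axis. Red points were called higher and blue points lower. ANGPTL4 stands above the other well-counted genes, and most called genes lie within 1 log2 unit of 0.

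The gene with the largest named rise was ANGPTL4 (ENSG00000167772, GRCh38 chr19:8363289-8374373, plus strand). It encodes a secreted inhibitor of lipoprotein lipase and is a target of both PPAR and hypoxia-inducible factors. It had 93.6, 101.4 and 86.5 CPM in the high libraries, against 13.5, 12.5 and 11.9 CPM in the low libraries. The groups lay far apart, and the log2 fold change was 2.88 (SE 0.08, adjusted p = 3.93e-17). THBD encodes thrombomodulin, a thrombin receptor that restrains coagulation. Its values were 34.8, 34.95 and 31.0 CPM at the high dose and 10.1, 10.1 and 9.28 CPM at the low dose, a log2 change of 1.77 (SE 0.08, adjusted p = 2.88e-13). CXCL8 encodes the neutrophil chemokine interleukin-8. It had 10.3, 11.2 and 10.9 CPM in the high libraries, against 3.09, 3.10 and 3.74 CPM in the low libraries (log2 change 1.71, SE 0.13, adjusted p = 2.14e-09). For all of these genes the 3 high libraries lay above each of the 3 low libraries.

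Further genes in the top of the rise encode surface and secreted proteins. KRTAP2-3, of the keratin-associated family, rose by 2.00 log2 units (SE 0.15, adjusted p = 1.20e-09). Its near-identical relatives can share reads, so its count is uncertain. Ion channels were represented by KCNC4, a voltage-gated potassium channel (1.48), and KCNK3, a background potassium channel (1.16). Transport and growth control were represented by SLCO4A1, an organic anion transporter (1.41), and IGFBP1, which sequesters insulin-like growth factors (1.40). NPTX1, a neuronal pentraxin, rose by 1.33, and the receptor gene GRPR, which serves gastrin-releasing peptide, by 1.20 log2 units. TMEM171, a transmembrane protein gene, rose by 1.27. HAS2, a hyaluronan synthase, had 111, 123 and 121 CPM in the high libraries and 45.4, 49.1 and 47.6 CPM in the low libraries, a log2 change of 1.32 (SE 0.06, adjusted p = 4.69e-13). The groups did not overlap for HAS2.

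**Figure D2:**
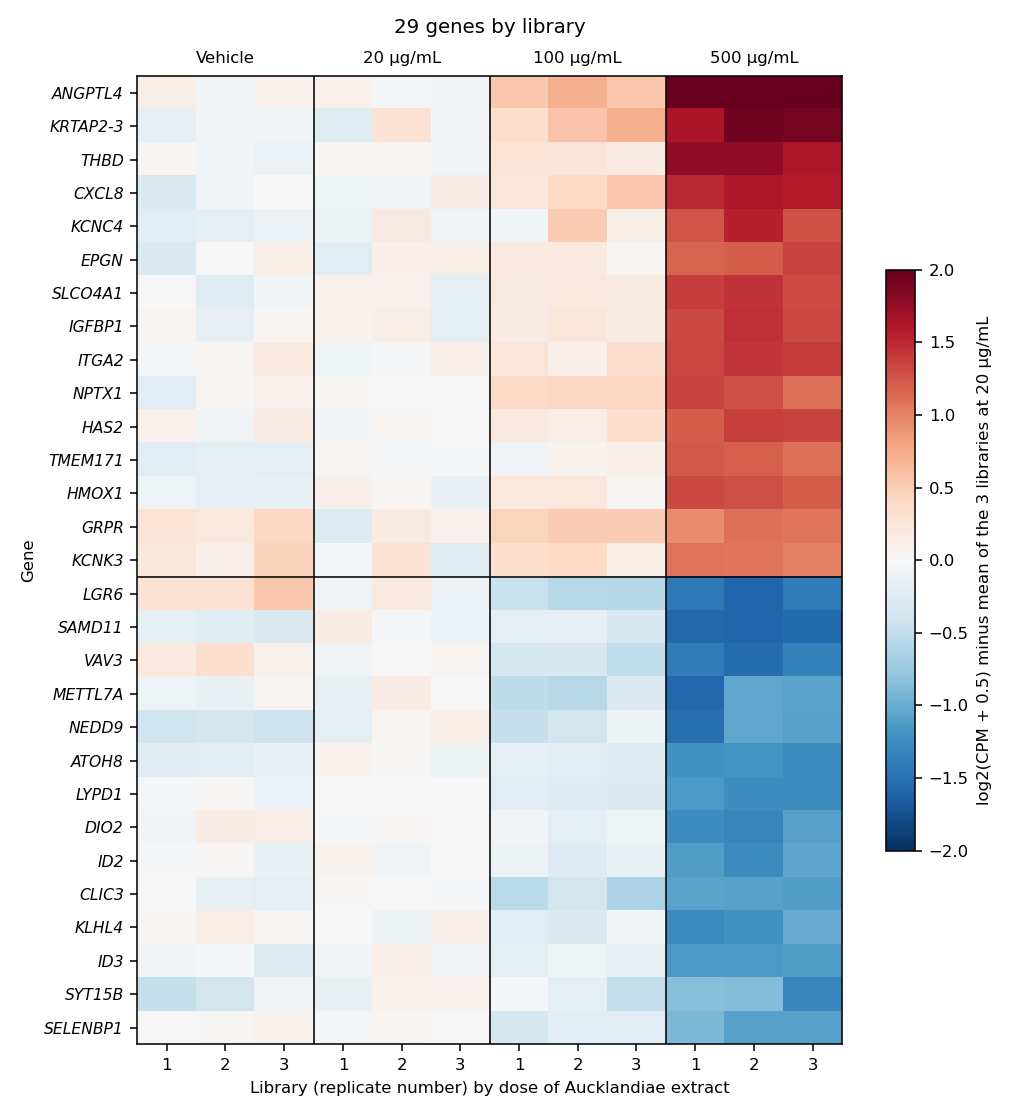
Rows are the 15 genes with the largest named rises and 14 of the 15 with the largest named falls, and columns are the 12 libraries from vehicle to 500 µg/mL. Colour gives log2(CPM + 0.5) minus the mean of the 3 libraries at 20 µg/mL, with colours saturating at 2, and the 3 libraries at 500 µg/mL stand apart from those at 20 µg/mL in every row. Several rows, ANGPTL4 and CLIC3 among them, have an intermediate shade at 100 µg/mL.

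NRF2 targets moved in 1 direction. Of 31 such genes, all tested, 23 were higher at the high dose and none lower, with a median log2 change of 0.30 against 0.00 for all genes. By role, 7 of 8 antioxidant and thiol enzymes rose, 4 of 8 genes of glutathione synthesis and transport, 5 of 5 enzymes of the pentose phosphate pathway and NADPH supply, and 7 of 10 genes of iron storage and detoxification. HMOX1, which degrades heme, had 157, 154 and 146 CPM in the high libraries, against 67.2, 64.5 and 57.5 CPM in the low libraries. Its log2 change was 1.27 (SE 0.06, adjusted p = 5.81e-13), and the groups did not overlap. TXNRD1, thioredoxin reductase, had 500, 512 and 526 CPM at the high dose and 315, 305 and 321 CPM at the low dose (log2 change 0.71, SE 0.04, adjusted p = 1.13e-11). FTH1, the ferritin heavy chain, had 2368, 2364 and 2324 CPM at the high dose and 1418, 1361 and 1314 CPM at the low dose (log2 change 0.79, SE 0.04, adjusted p = 2.73e-12). Processed copies of FTH1 can take some of its reads. SLC48A1 was not called without any 1 of the high replicates or low replicate 1 or 2. TXN lost its call without high replicate 1 or 3 or low replicate 2 or 3. TALDO1 lost it without high replicate 1 or 2 or low replicate 3, and ME1 without high replicate 3. With all 60 libraries in the fit, TXN, TALDO1, FTL and EPHX1 were not called.

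Steps of glutathione supply rose together with these. SLC7A11, the cystine importer, rose by 0.88, and GCLM and GCLC, the subunits of the enzyme that limits glutathione synthesis, rose by 0.63 and 0.54 log2 units. AKR1C1, an aldo-keto reductase, rose by 1.15 (SE 0.06, adjusted p = 9.09e-12), though reads are shared with close relatives such as AKR1C2. Not all of the list moved, since MGST1 had 0.15, PRDX1 0.14 and AKR1B10 −0.14, none of them called. NFE2L2, the gene of NRF2 itself, had a log2 change of 0.01 and was not called. Among AHR targets, a second xenobiotic programme, 2 of 7 tested genes were higher, NQO1 and TIPARP. CYP1A1 and CYP1B1, its usual readouts, were not called at −0.07 and −0.05.

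NRF2 binds antioxidant response elements, and the promoters of 2 strongly moved members carry a match to the core letters TGACNNNGC. The 250 bases before the RefSeq start (GRCh38.p14) are shown for TXNRD1 (chr12:104215529-104215778, plus strand) and GCLM (chr1:93909431-93909680, minus strand), 5′ to 3′, with the matches on either strand in capitals.
TXNRD1: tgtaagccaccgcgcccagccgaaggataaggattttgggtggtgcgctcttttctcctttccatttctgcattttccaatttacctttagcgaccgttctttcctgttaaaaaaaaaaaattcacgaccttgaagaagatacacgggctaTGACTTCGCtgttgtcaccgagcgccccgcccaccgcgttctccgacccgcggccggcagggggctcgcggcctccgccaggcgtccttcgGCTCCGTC
GCLM: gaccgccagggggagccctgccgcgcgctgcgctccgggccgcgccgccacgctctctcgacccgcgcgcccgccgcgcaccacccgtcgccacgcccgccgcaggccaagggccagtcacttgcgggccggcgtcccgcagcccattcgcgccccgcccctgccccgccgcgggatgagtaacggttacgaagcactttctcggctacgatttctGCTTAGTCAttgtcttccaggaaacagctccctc
TXNRD1 has 2 matches, starting 99 and 8 bases before the start, the second of which runs 1 base past the printed end, and GCLM has 1, starting 34 bases before it. In windows of 300 bases, 250 before and 50 after the start, 4 of the 22 tested NRF2 targets with a RefSeq entry held a match (18.2%), namely TXNRD1, GCLM, PGD and ME1. Of all 35116 promoter windows 13.3% held one. A match describes the letters only, and HMOX1 had no entry.

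Feedback genes of ERK signalling rose as a group. Of 19 genes, all tested, 15 were higher and none lower, with a median log2 change of 0.46. All 4 phosphatases of the list rose, as did 5 of 6 Sprouty and Spred inhibitors and 6 of 9 ETS factors and other output genes. DUSP7 was not called without high replicate 1 or 2 or low replicate 1 or 3. SPRED1 lost its call without high replicate 2 or 3 or low replicate 2. Neither was called with all 60 libraries in the fit. DUSP6, a phosphatase specific for ERK, had 44.8, 49.4 and 51.4 CPM in the high libraries, against 22.03, 26.1 and 25.4 CPM in the low libraries. Its log2 change was 1.00 (SE 0.09, adjusted p = 3.16e-08). PHLDA1 had 415, 446 and 420 CPM at the high dose and 230, 245 and 239 CPM at the low dose (log2 change 0.84, SE 0.05, adjusted p = 6.59e-11). CCND1, cyclin D1, had 352, 366 and 348 CPM at the high dose and 212, 216 and 220 CPM at the low dose (log2 change 0.72, SE 0.05, adjusted p = 7.66e-10). No high library overlapped a low one in these genes. SPRY1 (0.54), IER3 (0.37), EPHA4 (0.05) and ETV1 (−0.03) were not called.

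Ligands of the EGF receptor family, which signal to ERK, were among the risers. Of 11 tested ligands, receptors and regulators, 7 were higher and none lower. EPGN (epigen) had 6.22, 6.38 and 7.10 CPM in the high libraries and 2.07, 2.67 and 2.71 CPM in the low libraries, a log2 change of 1.42 (SE 0.13, adjusted p = 5.89e-08). HBEGF had 43.9, 43.5 and 43.7 CPM at the high dose, against 27.7, 27.8 and 28.1 CPM at the low dose (log2 change 0.65, SE 0.06, adjusted p = 2.74e-08). EREG (epiregulin) rose by 1.24 and EGFR by 0.38 log2 units, so ligands and their receptor were higher in the same libraries. Among 24 immediate early genes, 7 were higher (29.2%) and 2 lower (8.33%), against 9.15% and 8.13% of all genes. FOSL1, an AP-1 subunit, had 557, 613 and 530 CPM at the high dose and 283, 302 and 301 CPM at the low dose (log2 change 0.94, SE 0.07, adjusted p = 4.85e-10). The falling members were the AP-1 subunits JUNB (−0.40) and JUND (−0.44), while FOS (−0.13) was not called. AP-1 sites, read as TGANTCA, were found in 1 of 18 promoters of the immediate early genes (5.56%), in 1 of 13 of the ERK feedback genes (7.69%) and in 7.71% of all promoter windows.

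Hypoxia and HIF targets were mostly higher: 22 of 33 rose and 1, the crosslinking enzyme gene LOX, fell. LOX lost its call without high replicate 1 or 2 or low replicate 1 or 3. Of the 18 genes of angiogenesis and signalling 11 rose, and of the 15 genes of glucose transport and glycolysis 11 rose. NDRG1, a stress response gene, had 114, 115 and 115 CPM in the high libraries and 58.9, 67.2 and 62.5 CPM in the low libraries (log2 change 0.87, SE 0.05, adjusted p = 2.32e-11). VEGFA, the angiogenic growth factor, had 439, 497 and 457 CPM at the high dose, against 253, 294 and 291 CPM at the low dose (log2 change 0.74, SE 0.05, adjusted p = 4.36e-10). HK2, which phosphorylates glucose, rose by 0.60 and CA9, a carbonic anhydrase, by 0.62 log2 units. Several members often used to read hypoxia did not pass the test, among them EGLN3 (0.03), DDIT4 (0.10), BNIP3L (0.03) and LDHA (0.10). Most glycolytic rises were small, with PGK1 at 0.20 and PKM at 0.16. Of the 11, ALDOA, ENO1, HK1, PFKFB3 and SLC2A3 were not called without high replicate 3 or without low replicate 2, and 4 of these 5 were not called without high replicate 1 or without high replicate 2.

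The promoter of ANGPTL4 is shown because this gene had the largest called rise. The 250 bases before its RefSeq start (GRCh38.p14 chr19:8363905-8364154, plus strand) hold 1 match to the core of the hypoxia response element, ACGTG, here on the minus strand and in capitals, starting 234 bases before the start.
ANGPTL4: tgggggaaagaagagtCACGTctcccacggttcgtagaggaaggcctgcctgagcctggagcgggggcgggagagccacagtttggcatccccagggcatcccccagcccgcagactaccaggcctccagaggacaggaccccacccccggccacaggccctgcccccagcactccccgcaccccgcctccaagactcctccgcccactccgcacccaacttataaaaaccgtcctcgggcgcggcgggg
These letters were found in 14 of 29 hypoxia list members with an entry (48.3%) and in 21.4% of all promoter windows. A run of 5 letters is short and matches often by itself. Of the 14 genes, ANGPTL4, CA9, EGLN1, BNIP3, PLOD2, HK2, ALDOA and PGK1 were among the rises. LOX fell, whereas DDIT4, LDHA and GAPDH were not called.

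Lipid handling genes that respond to PPAR rose in 6 of 14 tested cases and fell in 1. Besides ANGPTL4, PLIN2, the coat protein of lipid droplets, had 110, 107 and 104 CPM at the high dose, against 61.9, 60.8 and 53.8 CPM at the low dose (log2 change 0.86, SE 0.06, adjusted p = 2.03e-10). VLDLR, a lipoprotein receptor, rose by 0.62 and CPT1A, which admits fatty acids to mitochondria, by 0.33 log2 units. The falling member was CD36, a fatty acid receptor, at −0.69, and its call was lost without high replicate 1 or 2. PDK4 (0.57) was not called.

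**Figure D3:**
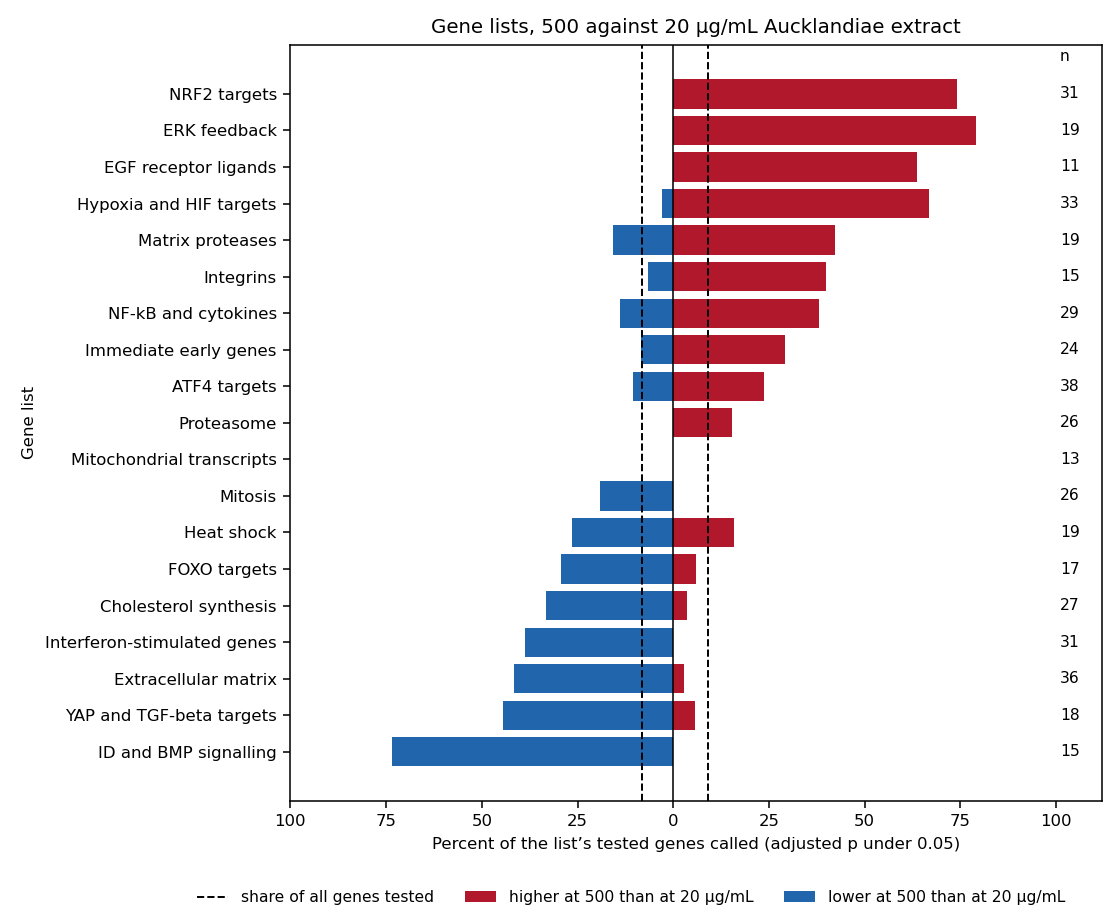
Bars give the percent of each list's tested genes called higher (red, to the right) or lower (blue, to the left) at 500 than at 20 µg/mL, with the number of genes tested at the right. Dashed lines mark the share of all tested genes, 9.15% higher and 8.13% lower. The NRF2, ERK feedback, EGF receptor and hypoxia lists lie mainly to the right, and the ID and BMP, YAP and TGF-beta, matrix and interferon lists mainly to the left.

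NF-kB targets and cytokines were split. Of 29 tested genes 11 were higher and 4 lower, and 7 were higher without low replicate 1 or without high replicate 3. Cytokines and chemokines rose in 6 of 11 cases with no fall. LIF, a cytokine of the interleukin-6 family, had 38.8, 55.3 and 43.1 CPM in the high libraries and 20.5, 26.4 and 24.8 CPM in the low libraries (log2 change 0.95, SE 0.13, adjusted p = 1.06e-05). IL1A rose by 1.05 and IL1B by 0.82 log2 units, whereas IL6 was not called at 0.23. The adhesion molecule ICAM1 had 28.7, 29.2 and 29.8 CPM at the high dose and 43.9, 41.9 and 37.1 CPM at the low dose, a fall of −0.49 (SE 0.06, adjusted p = 1.04e-06). TNFAIP2 (−0.53), the inhibitor gene NFKBIA (−0.32) and SOD2 (−0.17) were the other falling members. Outside the cytokines, NFKB2 (0.37), TNIP1 (0.23), PTGS2 (0.23), TRAF1 (0.30) and BIRC3 (0.31) made up the other rises. PTGS2, TRAF1, BIRC3 and the chemokine gene CXCL3 were the rises lost without high replicate 3 or low replicate 1, and DESeq2 called neither TRAF1 nor BIRC3. SOD2 was not called without high replicate 2 or 3 or low replicate 1.

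Genes of matrix breakdown and cell attachment rose beside these. Among 19 tested proteases and inhibitors 8 were higher (42.1%) and 3 lower (15.8%), against 9.15% and 8.13% of all genes. The rise of TFPI2 was not called without high replicate 1 or 3 or low replicate 2 or 3. The fall of MMP3 was lost without high replicate 2 or low replicate 1, and that of MMP15 without high replicate 1 or low replicate 2 or 3. PLAUR, the urokinase receptor, had 107, 112 and 104 CPM at the high dose, against 60.9, 61.8 and 56.0 CPM at the low dose (log2 change 0.85, SE 0.05, adjusted p = 2.81e-11). MMP14, a membrane-bound collagenase, had 1449, 1554 and 1382 CPM at the high dose and 828, 882 and 838 CPM at the low dose (log2 change 0.78, SE 0.04, adjusted p = 1.13e-11). PLAU, urokinase, rose by 0.73 and PLAT, the tissue plasminogen activator, by 0.64 log2 units, so both activators of plasminogen and the receptor of one of them were higher. Of 15 integrin subunits 6 rose (40.0%) and 1 fell (6.67%). ITGA2, the alpha subunit of a collagen receptor, had 564, 600 and 586 CPM in the high libraries, against 210, 218 and 238 CPM in the low libraries (log2 change 1.39, SE 0.08, adjusted p = 1.43e-11). ITGB3 rose by 0.99, ITGA6 by 0.42 and ITGA5 by 0.31 log2 units. ITGB5 lost its call with any 1 of the high or low replicates left out. ITGA4 lost it without high replicate 3 or low replicate 1 or 2, and neither was called with all 60 libraries in the fit.

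The largest named fall was that of LGR6 (ENSG00000133067, chr1:202193901-202319781, plus strand), a receptor that enhances WNT signalling. It had 1.54, 1.33 and 1.55 CPM in the high libraries, against 4.72, 5.77 and 4.56 CPM in the low libraries (log2 change −1.76, SE 0.16, adjusted p = 2.64e-08). SAMD11 had 51.1, 50.5 and 52.0 CPM at the high dose and 169, 150 and 141 CPM at the low dose (log2 change −1.59, SE 0.07, adjusted p = 4.69e-13). VAV3, a guanine nucleotide exchange factor, had 4.02, 3.58 and 4.14 CPM at the high dose and 10.9, 11.4 and 11.9 CPM at the low dose (log2 change −1.54, SE 0.11, adjusted p = 1.20e-09). The high libraries of these genes lay close together and below every low library. NEDD9, an adhesion scaffold, fell by 1.27 log2 units. LYPD1, which modulates nicotinic receptors, fell by 1.25, and DIO2, the deiodinase that activates thyroid hormone, by 1.24 log2 units. METTL7A (−1.38), CLIC3 (−1.18), KLHL4 (−1.18) and SELENBP1 (−1.14) fell as well, as did SYT15B (−1.15), which has a near-identical relative that can share its reads.

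A list of target genes, ligands and antagonists of BMP signalling was mostly lower. Of 15 genes, all tested, 11 were lower and none higher, with a median log2 change of −0.54. ID proteins bind basic helix-loop-helix factors and keep them from DNA, and they are direct products of BMP receptor signalling. ID3 had 111, 111 and 114 CPM in the high libraries and 238, 266 and 239 CPM in the low libraries (log2 change −1.15, SE 0.06, adjusted p = 2.73e-12). ID2 averaged 11.3 ± 0.888 CPM at the high dose and 25.5 ± 1.19 CPM at the low dose (SD, n = 3 each; log2 change −1.18, SE 0.09, adjusted p = 1.42e-09). ATOH8, a helix-loop-helix factor, had 14.1, 14.3 and 13.7 CPM at the high dose and 34.9, 34.1 and 31.2 CPM at the low dose (log2 change −1.25, SE 0.06, adjusted p = 2.34e-12). In each of them the groups lay apart with no overlap. ID1 (−0.54) and ID4 (−0.89) fell too, so all 4 ID genes of the list were lower. The ligand BMP4 fell by 0.97 and the inhibitory SMAD6 by 0.77 log2 units, while BMP2 (0.35), NOG (−0.42) and SMAD9 (−0.28) were not called. GREM1, an antagonist, was among the falls. Its call was lost without high replicate 1 or 2 or low replicate 1 or 3, and with all 60 libraries in the fit. A GC-rich core of BMP response elements, GGCGCC, was found in 3 of 12 promoters of the list (25.0%) and in 19.2% of all promoter windows.

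Matrix genes fell in 15 of 36 cases and rose in 1, PLOD2. The falls included 8 of 13 collagens, 6 of 17 glycoproteins and proteoglycans and 1 of 6 crosslinking enzymes. COL1A2, a chain of type I collagen, had 1006, 971 and 1047 CPM in the high libraries, against 1635, 1581 and 1633 CPM in the low libraries (log2 change −0.68, SE 0.04, adjusted p = 6.90e-11). COL1A1, its partner chain, had 2096, 2119 and 2126 CPM at the high dose and 3184, 3313 and 3344 CPM at the low dose (log2 change −0.63, SE 0.05, adjusted p = 2.00e-09). COL11A1 fell by 1.04, COL5A1 by 0.51 and COL3A1 by 0.66 log2 units, all chains of fibril-forming collagens. The basement membrane chains COL4A1 (−0.06) and COL4A2 (−0.09) and the type VI chains COL6A1 (0.02), COL6A2 (−0.01) and COL6A3 (0.10) were not called, nor was FN1, fibronectin (−0.03). Targets of YAP and TGF-beta fell in 8 of 18 cases and rose in 1. ACTA2, smooth muscle actin, fell by 0.62, CCN2 by 0.45 and SMAD7 by 0.29 log2 units, while CCN1 (−0.06) was not called. CCN2 averaged 171.7 CPM at the high dose, 234.8 CPM at the low dose and 169.4 CPM with vehicle.

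Interferon-stimulated genes fell in 12 of 31 cases (38.7%, against 8.13% of all genes) with no rise. The falls numbered 19 when genes of low count were not filtered out. IFI35 was not called without high replicate 1 or low replicate 2, IFIT3 without high replicate 2 and ISG15 without low replicate 1. With all 60 libraries in the fit, OAS3, IFI35 and ISG15 were not called. The median of the list was −0.31 log2 units. IFI44L had 18.6, 20.6 and 20.7 CPM at the high dose, against 32.5, 31.9 and 33.7 CPM at the low dose (log2 change −0.71, SE 0.08, adjusted p = 9.52e-07). IFITM1, which restricts virus entry, fell by 0.70 and BST2, tetherin, by 0.44 log2 units. The sensors IFIH1 (−0.16) and RIGI (0.05) and the factor IRF1 (0.06) were not called.

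Of 19 cytosolic heat shock genes 5 were lower and 3 higher, and the rises numbered 0 or 1 without high replicate 1 or 3 or any 1 of the low replicates. HSPA1A and HSPA1B, which encode near-identical HSP70 proteins and can exchange reads, fell by 0.50 and 0.53 log2 units. HSPB1, a small heat shock protein, had 254, 258 and 258 CPM at the high dose and 351, 353 and 320 CPM at the low dose (log2 change −0.41, SE 0.06, adjusted p = 1.25e-05). CRYAB, a related small chaperone of low count, had 0.309, 0.221 and 0.360 CPM at the high dose and 1.09, 0.817 and 1.03 CPM at the low dose (log2 change −1.72, SE 0.33, adjusted p = 0.000675). None of these groups overlapped. Of 38 ATF4 targets 9 rose and 4 fell, with 4 rises without low replicate 2. SLC7A11 and SLC3A2 (0.34), partners in cystine import, rose, while PHGDH (−0.46), of serine synthesis, and NUPR1 (−0.68) fell, and DDIT3 (0.04), TRIB3 (0.04) and ASNS (0.10) were not called. Of 22 p53 targets 4 were higher and 3 lower, with 2 rises without low replicate 1, and CDKN1A (0.15) and MDM2 (0.15) were not called. The shares higher and lower were 15.8% and 26.3% for heat shock, 23.7% and 10.5% for ATF4 and 18.2% and 13.6% for p53. Among all genes tested, 9.15% were higher and 8.13% lower.

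Sterol genes leaned lower. Of 27 genes of cholesterol synthesis and uptake 9 fell and 1, CYP51A1, rose, while 5 fell without low replicate 1 and 2 rose without low replicate 3. INSIG1, which retains the sterol sensor in the endoplasmic reticulum, had 106, 105 and 110 CPM at the high dose and 142, 137 and 138 CPM at the low dose (log2 change −0.38, SE 0.05, adjusted p = 1.03e-05). SREBF1, a factor that drives fatty acid synthesis, fell by 0.44 log2 units, whereas SQLE (−0.02), a rate-controlling enzyme of sterol synthesis, was not called. Among apoptosis regulators 5 of 14 rose (35.7%) and 1 fell (7.14%), against 9.15% and 8.13% of all genes. The rises of BCL2L1 (0.31) and MCL1 (0.16), which restrain apoptosis, were small, and BMF, which promotes it, had 1.47, 1.70 and 1.23 CPM at the high dose, against 3.43, 3.76 and 3.58 CPM at the low dose (log2 change −1.29, SE 0.16, adjusted p = 2.81e-06). PMAIP1, BID and BOK, which promote apoptosis, were the other rises. Without high replicate 1 or low replicate 2 or 3, only 2 or 3 rises were called.

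Of 26 mitotic genes 5 were lower and none higher, with 2 or 3 lower without high replicate 1 or 2 or low replicate 1 or 2. KIF20A, a mitotic kinesin, fell by 0.46 (SE 0.05, adjusted p = 1.63e-06), while MKI67 (−0.00), PLK1 (−0.08) and AURKA (−0.04) were not called. Of 28 DNA replication genes 4 were lower, with MCM7 (−0.20) of the smallest p, and 1, RRM2 (0.11), higher. Only 1 or 2 of these falls were called without high replicate 2 or 3 or low replicate 1 or 2, and the rise of RRM2 was lost without high replicate 1 or 3 or low replicate 2 or 3. None of the 13 mitochondrially encoded messenger RNAs was called in edgeR's test, 0 had an unadjusted p under 0.05 and 0 were called by DESeq2. Their estimates ran between −0.10 and 0.22. The mitochondrial ribosomal RNAs MT-RNR1 (−0.46) and MT-RNR2 (−0.52), looked at after their values were seen, were called lower. Among 17 tested G1 genes 4 were higher and 3 lower. CCND1, E2F7 (0.65), CCNE1 and the inhibitor gene CDKN2B rose. The inhibitor gene CDKN2C fell by 0.54 log2 units, and CDK4 and the inhibitor gene CDKN1B fell as well. Without high replicate 3 or low replicate 1, 1 of the falls was called. The share lower was 19.2% for mitosis, 14.3% for DNA replication and 17.65% for G1 genes, against 8.13% of all genes. The share higher was 3.57% for DNA replication and 23.5% for G1 genes, against 9.15% of all genes.

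Of 17 FOXO targets 5 fell and 1, IGFBP1, rose, with PIK3IP1, an inhibitor of PI3K, at −0.95 and KLHL24 at −0.43. PIK3IP1 lost its call without high replicate 2 or low replicate 1, and 2 or 3 of the 17 fell without high replicate 1 or 2 or low replicate 1 or 2. KLF2 and KLF4 are known to drive THBD in endothelium. Of 7 tested genes of the list of these factors and their target 4 rose, THBD, KLF2 (0.54), KLF4 (0.36) and KLF6 (0.33), and 1 fell, KLF9 (−0.61). KLF4 was not called without high replicate 2 or low replicate 1 or 3. Among 8 LXR targets 3 fell and none rose, SREBF1, MYLIP (−0.41) and LPCAT3 (−0.25), the last of which lost its call without high replicate 1 or low replicate 2. Of 29 genes of lysosomes and autophagy 7 fell and 3 rose, with TFEB, a factor that drives lysosomal genes, at −0.37 and the protease gene CTSL at 0.27. TFEB was not called without high replicate 3 or low replicate 2. Of 26 proteasome subunits 4 rose and none fell, all by at most 0.24 log2 units, and 2 rose without high replicate 1 or low replicate 2 or 3. Of 23 genes of the unfolded protein response 6 rose and 2 fell, with the sensor gene ERN1 at 0.35, and 2 or 3 rose without high replicate 1 or 3. Of 5 metallothioneins 1 rose, MT2A (0.49). Across all genes tested, 9.15% were higher and 8.13% lower. The unfolded protein response list was 26.1% higher and 8.70% lower, and the lysosome list 10.3% higher and 24.1% lower. Rises made up 15.4% of the proteasome list.

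Summed markers of other cell types differed little between doses or were lower at the high dose, microglial markers aside. Summed epithelial markers ran between 107.9 and 111.3 CPM in the high libraries and between 141.4 and 151.2 CPM in the low libraries, with EPCAM, CDH1, KRT19, KRT5 and KRT14 under 1 CPM throughout. KRT18 (−0.44) and KRT8 (−0.45) fell and made up most of this difference. Summed oligodendrocyte markers were 302.4 to 307.9 CPM at the high dose and 332.4 to 344.0 CPM at the low dose. Summed neuron markers were 169.3 to 176.0 CPM at the high dose and 172.2 to 179.1 CPM at the low dose, with overlap. Endothelial markers were 363.6 to 370.4 CPM at the high dose and 346.4 to 387.5 CPM at the low dose. Of the microglial and leukocyte markers PTPRC fell by 0.98 log2 units, with 5.06, 4.90 and 4.83 CPM at the high dose and 10.2, 8.88 and 9.93 CPM at the low dose, while 9 of 12, AIF1 and CD14 among them, were under 1 CPM in all libraries. The summed list ran between 196.6 and 222.5 CPM at the high dose and between 162.5 and 199.6 CPM at the low dose. Of its 3 tested members, 1 had a positive change (0.21, not called), with the 3 high libraries above the 3 low ones. Whether these markers have a part in the results above was not tested.

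The dose series showed that most of the movement lay between 100 and 500 µg/mL. Low dose against vehicle called 5 genes (0.0293%), a comparison in which the dose and the library name cannot be told apart. CCN2 (0.47), CCN1 (0.45), NQO1 (0.26) and DNLZ (0.54) were higher (0.0234%) and PADI2 (−0.53) lower (0.00586%). Medium against low dose called 8 genes (0.0468%). Of these, 5 were higher (0.0293%), among them ANGPTL4 (0.61), FTH1 (0.25), FOSL1 (0.42) and NQO1 (0.26), and SFRP2 (−0.33), LYPD1 (−0.26) and CLIC3 (−0.54) were lower (0.0176%). At an unadjusted p under 0.05 these comparisons held 1248 and 1061 genes. The calls of CCN1 and PADI2 against vehicle and of LYPD1 at the medium dose were lost with any library of their comparison left out. NQO1 lost both of its calls when only the compared groups were fitted. High against medium dose called 1536 genes (9.00%), 789 higher (4.62%) and 747 lower (4.37%). The medium and high doses are set against the same low libraries, so their fold changes over it share those values.

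**Figure D4:**
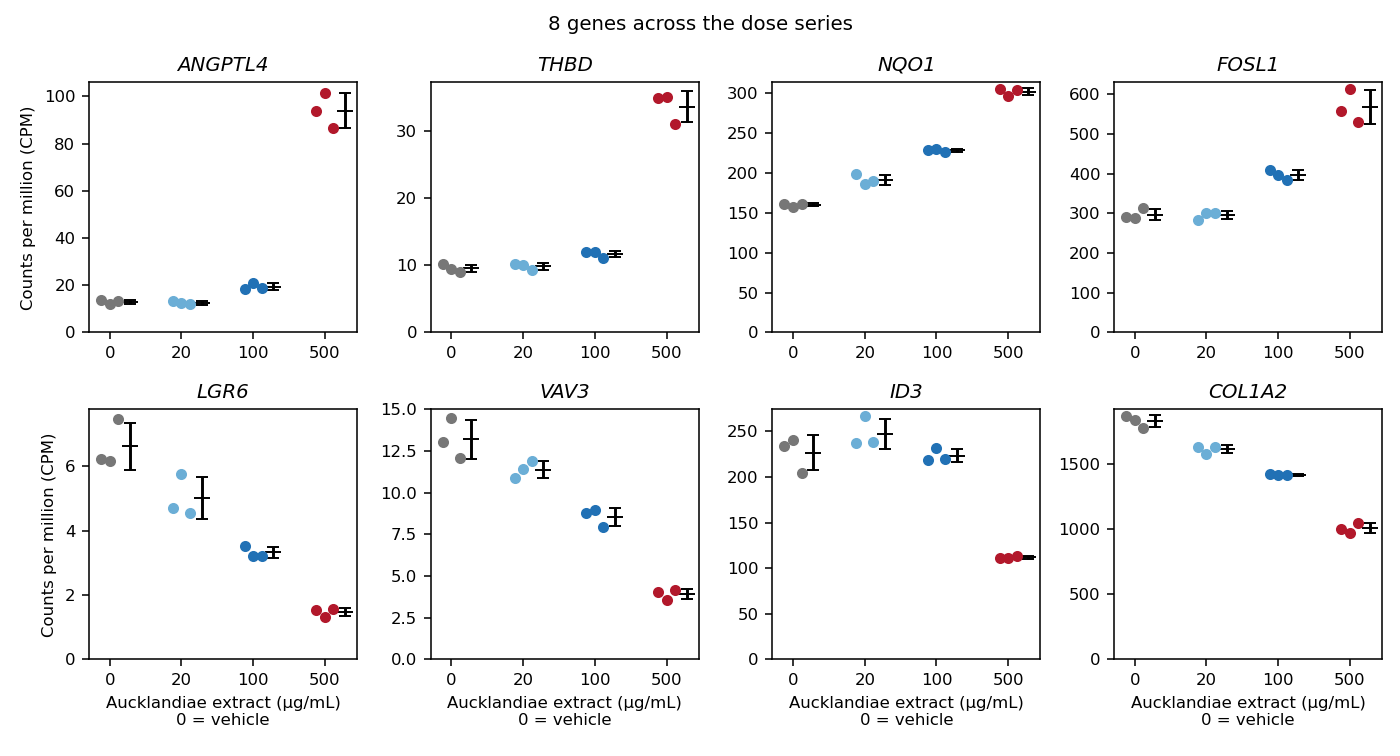
CPM of 8 genes in each of the 12 libraries by dose of Aucklandiae extract in µg/mL, with 0 for vehicle. Points are libraries, and the bar and whiskers beside them give the mean and SD of 3. NQO1 climbs at every dose, with means of 160.3, 191.5, 228.6 and 302.0 CPM, while ANGPTL4 and THBD stay near their vehicle level at 20 µg/mL and are high at 500 µg/mL.

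Genes differed in the dose at which they moved. NQO1, a quinone reductase, averaged 160.3 CPM with vehicle, 191.5 CPM at 20, 228.6 CPM at 100 and 302.0 CPM at 500 µg/mL, and each dose lay above the one before in all 3 libraries. ANGPTL4 averaged 13.1, 12.6, 19.4 and 93.8 CPM in the same order, so its level at 20 µg/mL was that of vehicle within the spread. FOSL1 averaged 296.9, 295.2, 395.5 and 566.8 CPM, and FTH1 1239, 1364, 1620 and 2352 CPM. TMEM171, by contrast, averaged 3.06, 3.59, 3.69 and 8.74 CPM, with medium libraries inside or close to the range of the low ones. HMOX1 (0.15), THBD (0.25) and CXCL8 (0.46) were not called between the medium and the low dose, but had 1.12, 1.52 and 1.25 log2 units between the high and the medium dose. Among the falls, VAV3 averaged 13.2, 11.4, 8.56 and 3.91 CPM and COL1A2 1833, 1616, 1421 and 1008 CPM, both with a lower mean at each step. Neither was called between the low dose and vehicle or between the medium and the low dose. ID3 averaged 226.5, 247.6, 223.5 and 111.9 CPM, so it fell mainly at the highest dose.

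The high against low contrast of this herb was then set against the same contrast of the other extracts, each within its own library set. For Schisandrae at the matched doses of 500 and 20 µg/mL, 10142 of 17341 genes (58.5%) were called, 28.6% higher and 29.9% lower. The contrast differed between the herbs for 7427 genes (42.8%) by the interaction test, 3933 (22.7%) with the more positive change for Aucklandiae and 3494 (20.1%) with the more negative one. Of 1561 Aucklandiae rises tested in both, 885 (56.7%, or 18.3% of the 4839 Schisandrae rises) also rose with Schisandrae and 311 fell. Of 1388 Aucklandiae falls, 905 (65.2%, or 17.5% of the 5169 Schisandrae falls) also fell and 166 rose. Schisandrae rises made up 28.4% and falls 30.3% of all genes tested in both.

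No difference was called for ANGPTL4, whose log2 change was 2.88 with Aucklandiae and 2.92 with Schisandrae, a difference of −0.04 (SE 0.10, adjusted p = 0.803). CXCL8 and THBD rose less with Aucklandiae (1.71 and 1.77) than with Schisandrae (4.52 and 3.40), by −2.81 (SE 0.18, adjusted p = 5.91e-13) and −1.63 log2 units (SE 0.10, adjusted p = 3.94e-13). LGR6 and VAV3 fell less with Aucklandiae (−1.76 and −1.54) than with Schisandrae (−3.80 and −3.72), differences of 2.03 (SE 0.26, adjusted p = 1.99e-07) and 2.18 (SE 0.20, adjusted p = 4.22e-10). FTH1 rose by 0.79 with Aucklandiae and had −0.00 with Schisandrae, and NQO1 had 0.66 and −0.44. CRYAB fell by 1.72 with Aucklandiae and had −0.08 with Schisandrae, a difference of −1.65 (SE 0.44, adjusted p = 0.00313). NQO1 thus moved in opposite directions with the herbs. Herb and library set cannot be told apart between Aucklandiae and Schisandrae, although each contrast lies within 1 set.

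Polygalae was given at other doses, 250 against 10 µg/mL, in the same ratio and the same library set. It called 7801 genes (45.7%), and the difference between the contrasts was called for 5452 (31.9%), 3021 (17.7%) more positive and 2431 (14.2%) more negative for Aucklandiae. Of 1562 Aucklandiae rises 612 (39.2%, or 16.1% of the 3800 Polygalae rises) also rose with Polygalae and 374 fell. Of 1389 falls 751 (54.1%, or 18.8% of 4001) also fell and 186 rose. Polygalae rises made up 22.3% and falls 23.4% of all genes tested. ANGPTL4 rose by 2.88 with Aucklandiae and had 0.20 with Polygalae, a difference of 2.68 (SE 0.12, adjusted p = 1.34e-13). ID3 fell by 1.15 with Aucklandiae and rose by 0.67 with Polygalae (difference −1.81, SE 0.08, adjusted p = 1.07e-13). HSPA1A fell by 0.50 with Aucklandiae and rose by 1.28 with Polygalae (difference −1.78, SE 0.06, adjusted p = 7.83e-15). GRPR, at low counts, rose by 1.20 with Aucklandiae and fell by 1.04 with Polygalae (difference 2.25, SE 0.23, adjusted p = 1.00e-07). HMOX1 rose with both, by 1.27 with Aucklandiae and 2.24 with Polygalae (difference −0.97, SE 0.08, adjusted p = 2.13e-09).

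**Figure D5:**
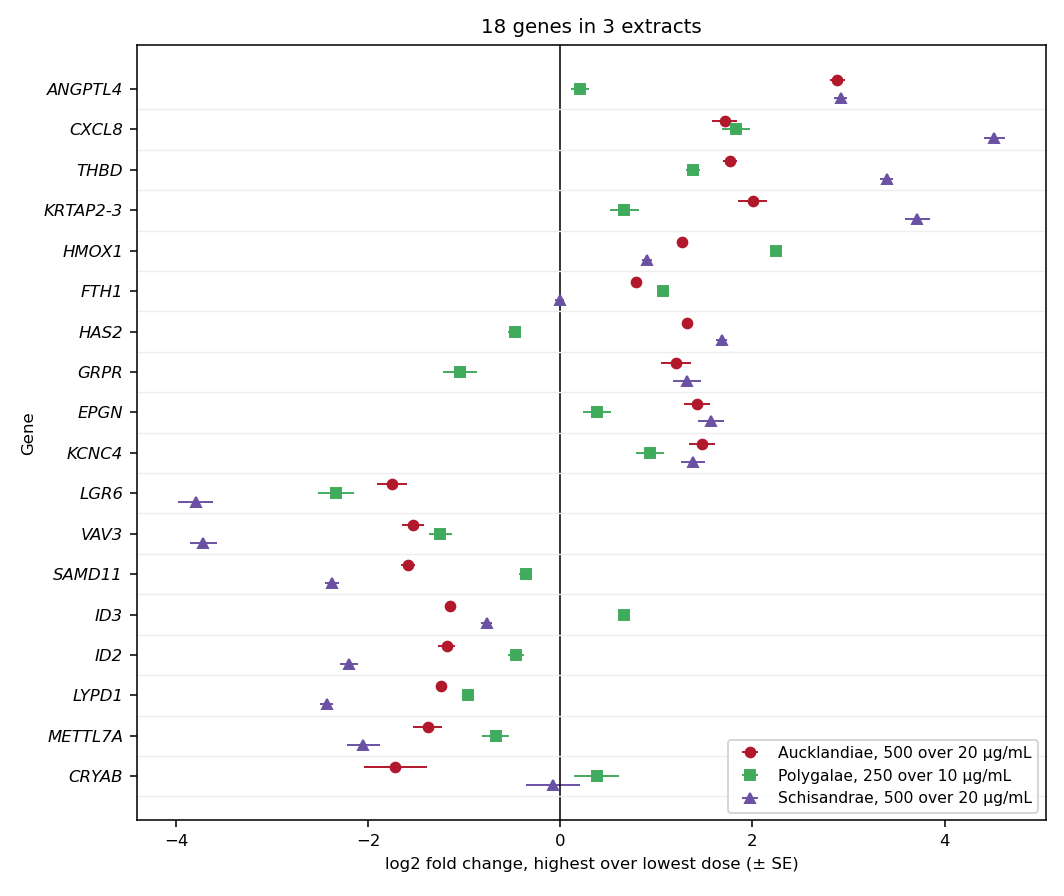
Log2 fold change of the highest over the lowest dose, with its SE as a whisker, for 18 genes in Aucklandiae (red circles, 500 over 20 µg/mL), Polygalae (green squares, 250 over 10 µg/mL) and Schisandrae (purple triangles, 500 over 20 µg/mL). The Aucklandiae and Schisandrae points of ANGPTL4 coincide at 2.88 and 2.92, those of CXCL8 lie 2.81 apart, and ID3 and GRPR point in opposite directions with Aucklandiae and Polygalae.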

How the data were processed

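RNA-seq of SW1783 cells, a human astrocytoma line, was used as the authors deposited it, as 1 table of expected counts from RSEM 1.3.3 for 60675 gene identifiers in 60 libraries. Reads in pairs of 100 bp from a directional mRNA kit were trimmed with Trim Galore 0.6.5 and aligned to GRCh38 with STAR 2.7.3a, per the submitters' processing notes and the labels' protocols. Which annotation release and strand setting RSEM used is not given in the sources used here, so reads of a gene and an antisense partner may be mixed. Of these deposited values 11.02% held a fraction, and all were rounded. Depth ran from 9.34 to 35.35 M counts (M, mega) per library, which limits the precision of genes of low count.

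Groups came from the treatment labels. The fit of edgeR 4.0.16 (R 4.3.3) held 21 libraries, vehicle and the 3 doses each of Aucklandiae and Polygalae, with a mean per group, TMM normalisation, the expression filter at a minimum count of 10 (17076 genes) and the quasi-likelihood test on 14 residual degrees of freedom. The biological coefficient of variation was 5.34%. The Schisandrae libraries were added for the contrasts with that herb (30 libraries, 17341 genes). Every adjusted p is Benjamini-Hochberg over all genes of a comparison, and a gene was called under 0.05. SE is the standard error of a log2 fold change. Other herbs were left out because Liriopis_high replicate 1 was known to widen the common spread. The members, lists, tests and alternatives were chosen with earlier results of these data known.

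Named genes are the 15 largest called rises and falls with no overlap between the 3 high and 3 low libraries and at least 5 CPM in the higher group, the 4 list members with the smallest p, the genes called at lower doses, and the top differences between herbs. Some genes that meet this rule are not reported here. Other list members named beside a count were chosen after their values were seen. Identifiers were matched to symbols (56558) and to GENCODE release 29 for coordinates (57055), and promoters to RefSeq (GRCh38.p14). On simulated counts for 16646 genes with the high against low contrast altered, 78 of 100 genes changed 1.5-fold and 93 of 100 changed 2-fold were called, with 7 false calls. The changed genes were drawn only from genes above a minimum CPM at the low dose, and all other genes had equal means in every group. Far fewer genes were changed than were called in the data, so these figures do not give the rates for those calls. Alternatives were another normalisation, DESeq2 1.42.0, no filter, other sets of libraries, a replicate block and leaving out each library.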

Additional observations from a re-analysis of the deposited data

Results flagged for a closer look

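These genes are the named ones for which the high against low contrast differed most from that of another extract, by edgeR's test of the difference itself (Benjamini-Hochberg adjusted over all genes). Each difference is the Aucklandiae log2 change minus that of the other herb.

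Against Schisandrae at matched doses, the difference was −2.81 for CXCL8, −1.72 for KRTAP2-3, −1.65 for CRYAB and −1.63 for THBD. KRTAP2-3 rose by 2.00 with Aucklandiae and 3.72 with Schisandrae (SE of the difference 0.20, adjusted p = 7.05e-08). The difference was 2.18 for VAV3 and 2.03 for LGR6, which fell with both herbs. It was 1.48 for SNAP25, a synaptic vesicle fusion gene that had −0.13 with Aucklandiae, not called, and fell by 1.61 with Schisandrae (adjusted p = 2.39e-14). It was 1.51 for NES, an intermediate filament gene that rose by 0.32 with Aucklandiae and fell by 1.19 with Schisandrae (adjusted p of the difference 7.01e-09). The rise of NES with Aucklandiae was not called by DESeq2, without high replicate 1 or 2 or low replicate 1, with no filter or with all 60 libraries.

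Against Polygalae, whose doses differed, the difference was −2.10 for HSPA1B, −1.78 for HSPA1A and −2.10 for CRYAB. HSPA1B fell by 0.53 with Aucklandiae and rose by 1.57 with Polygalae (adjusted p = 4.75e-13), and it shares reads with HSPA1A. CRYAB had 0.38 with Polygalae, not called. The difference was −1.81 for ID3, 2.25 for GRPR and 2.68 for ANGPTL4. PECAM1, averaging 1.06 CPM at the high dose and 0.652 CPM at the low dose of Aucklandiae, had 0.72 with Aucklandiae, not called, and fell by 1.19 with Polygalae, a difference of 1.91 (adjusted p = 0.00422). KRT14, under 1 CPM in the Aucklandiae libraries, had 0.67 with Aucklandiae, not called, and fell by 1.64 with Polygalae, a difference of 2.32 (adjusted p = 0.0153) that was no longer called without Polygalae_low replicate 3 (adjusted p = 0.0689).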

How the results depend on the processing

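High against low called 2951 genes, against 2245 to 3117 with a library left out, 2748 with DESeq2, 2846 with no filter and 1891 with all 60 libraries, 1833 of them shared. Called high against low genes with at least a 2-fold change numbered 191, against 156 to 194 with a library left out, 122 with DESeq2 and 281 with no filter. High against medium called 1536, against 1070 to 1660 with a library left out and 976 with all 60. Medium against low called 8, against 2 to 10, 3 with all 60, 23 with all but Liriopis_high replicate 1, 27 with DESeq2, 122 with no filter and 5 with the 2 groups alone. Low against vehicle called 5, against 0 to 6, and 1, 16, 14 and 158 in the first 4 of those settings. The 0 came without low replicate 1 and without vehicle replicate 2 or 3. The differences from Polygalae (5452) and Schisandrae (7427) ran from 4939 to 5618 and from 6933 to 7565 with a library left out, and were 4060 and 5806 with all 60. Of 336 gene results followed over up to 37 alternatives, none reversed and 203 kept their call in every one run, the 30 largest changes among them.

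Deviations of same-numbered high and low libraries had r of 0.076, 0.022 and 0.033, none over 0.1, so the numbers were not taken as pairs. High replicate 2 correlated more with low replicate 3 (0.064) than with its own number. The second principal component of the 9 Aucklandiae libraries (14.7%) placed replicates 1 at −10.36, −11.38 and −20.56 (high, medium, low), replicates 2 at 6.68, −12.12 and 0.43 and replicates 3 at 5.96, 15.47 and 25.89. With the replicate block, high against low called 2889 genes, high against medium 1513, medium against low 11, and the differences 5366 and 7340. Depth of 18.64 M counts in the shallowest low library limits genes of low count, which were left out by the filter or have wide errors.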

Other observations

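Selenoproteins carry selenocysteine and include glutathione peroxidases, thioredoxin reductases and deiodinases. They were looked at after DIO2 and TXNRD1 had been seen to move in opposite directions, so their counts are a description. Of 19 tested, 6 were lower and 2 higher at the high dose, against 8.13% and 9.15% of all genes, with a median of −0.05 log2 units. SELENOW had 35.9, 33.6 and 31.1 CPM in the high libraries, against 69.9, 74.9 and 67.0 CPM in the low libraries (log2 change −1.07, SE 0.08, adjusted p = 1.71e-09 in edgeR's test). GPX1, a glutathione peroxidase of the cytosol, averaged 102.1 ± 2.18 CPM at the high dose and 189.8 ± 11.6 CPM at the low dose (SD, n = 3 each), a log2 change of −0.90. SELENOH fell by 0.61, GPX4, which protects membrane lipids, by 0.47 and TXNRD2, the mitochondrial reductase, by 0.35 log2 units. SELENOH, GPX4 and TXNRD2 were not called with all 60 libraries in the fit, and TXNRD2 not without high replicate 3 or low replicate 1. TXNRD1 rose, as did SELENOI by 0.20, a call near the threshold that 17 of the 28 alternatives run for it ended. The selenoproteins SELENOT (−0.05), SELENOF (−0.05) and SELENON (−0.05) were not called.

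Hyaluronan genes were looked at after HAS2 and HAS3 were seen among the rises. Of 12 tested, 6 were higher and none lower, against 9.15% and 8.13% of all genes. HAS2 and HAS3 are among the 6, so the count is a description. HAS3, a second hyaluronan synthase, averaged 52.8 ± 1.86 CPM at the high dose and 26.2 ± 0.603 CPM at the low dose (SD, n = 3 each; log2 change 1.01, SE 0.05, adjusted p = 7.44e-12 in edgeR's test). UGDH, which makes a sugar precursor of hyaluronan, rose by 0.31, and CD44, a hyaluronan receptor, by 0.15 log2 units. CD44 was not called without any 1 of the high replicates or low replicate 1, and neither CD44 nor CEMIP with all 60 libraries. HYAL3, a hyaluronidase gene, rose by 0.70 and CEMIP, which serves hyaluronan breakdown, by 0.36, so genes of synthesis and of breakdown were both among the rises. TNFAIP6 (−0.30), HYAL2 (−0.05) and CEMIP2 (0.01) were not called.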
